A study of Bos taurus with 6 samples.

Results

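The 10 genes examined here belong to 3 vasoactive peptide systems and were measured in cultured bovine granulosa cells (GC), the steroid-producing cells that line the follicle. The angiotensin system was represented by AGT, ACE and AGTR1, the endothelin system by EDN1, EDN2, EDNRA and EDNRB, and the natriuretic system by NPPC, NPR2 and NPR3. The members are all rows of the deposited table whose gene symbol is one of these 10 names. This gave 11 transcript clusters, the unit by which the array measures a gene, of 26773 in the table, because NPR2 is listed with 2 of them. Pooled primary GC from abattoir ovaries were plated at a normal density or at a high density with 10 times the cells per well, and each density had 3 cultures, hybridized to 1 array each. Both densities were kept serum-free with FSH, IGF-1 and androstenedione until day 9, so these hormones were shared by all cultures, and the cows' cycle stage was not defined. The question was how plating density alters the expression of these genes.

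Vasoactive peptides are cut from larger precursors and act on receptors in the membrane of nearby cells. Angiotensin II is cut from angiotensinogen (AGT) in steps, the last of them by the converting enzyme ACE, and acts mainly through the receptor AGTR1. The endothelins EDN1 and EDN2 bind the receptors EDNRA and EDNRB, and EDN2 is known as a gene that GC switch on for a short time around ovulation. NPPC encodes C-type natriuretic peptide. In the follicle this peptide acts on NPR2, a receptor that makes cyclic GMP and helps to keep the oocyte in meiotic arrest, while NPR3 mainly removes natriuretic peptides.

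All values are log2 signals, which the authors made by RMA, a procedure that corrects background, normalizes arrays against each other and summarizes the probes of a gene. The medians of the 6 arrays were between 4.34 and 4.43. The background level was taken as the 95th percentile of 82 reporter control rows, a log2 signal of 4.62, and 51.2% of all transcript clusters had both group means at or below it. The 26773 rows counted as transcript clusters include these control rows, and so do all shares of transcript clusters given here. A log2 fold change is the mean of the high density cultures minus the mean of the normal density cultures, tested by limma over all transcript clusters and given with its standard error (SE). A gene is termed called when its fold change (FC) exceeded 1.5 in size with a p-value and a false discovery rate (FDR) below 0.05, the levels that the methods set. The FDR is the adjusted p given below. Precision is limited by the small number of arrays. With 3 cultures per density, the smallest p that exact permutation could give is 0.1. The methods describe the samples as GC preparations pooled from many cows, so the p-values measure the spread between such preparations and not between single cows.

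EDNRB, AGTR1 and NPPC were up-regulated at high density, and no member was called as down-regulated by limma or by the methods' t-test, which is the analysis of variance for 2 groups. At an unadjusted p below 0.05, 5 member clusters were higher and 3 were lower, 2 of these 3 being clusters of NPR2. In either direction, 32.3% of all transcript clusters passed. The 3 called members stand against 7.49% of all transcript clusters called in either direction, against 3.97% called as higher and against 3.51% called as lower. Both transcript clusters of NPR2 were lower at high density with an adjusted p below the threshold, but their change was smaller than the FC threshold. Including both NPR2 clusters, 5 of 11 member clusters passed the FDR threshold at any FC, where 19.1% of all transcript clusters did. The NPR2 clusters are not separate observations. AGT, ACE, EDN1, EDN2, EDNRA and NPR3 were not called. The median log2 fold change was 0.16 over the 11 member clusters and 0.02 over all transcript clusters. All of the 10 genes except EDNRB and NPR2 had both group means at or below the background level, and this includes AGTR1 and NPPC among the called genes.

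**Figure D1:**
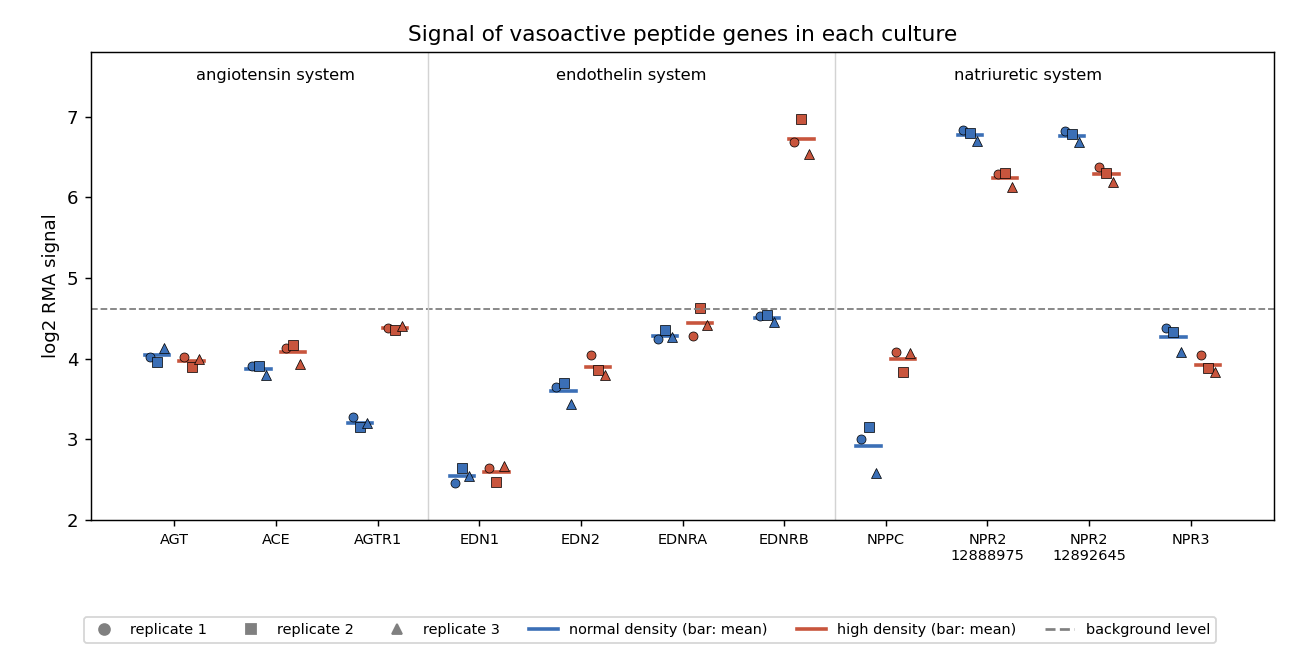
Log2 RMA signal (y axis) of the 11 member transcript clusters (x axis) in each culture, with normal density in blue, high density in red, replicates as different symbols, group means as bars and the background level of 4.62 as a dashed line. Both NPR2 clusters lie above this line in every culture and EDNRB crosses it at high density, while AGTR1 and NPPC rise but stay below it.

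In 8 of the 11 member clusters the signals of the 2 densities did not overlap, with 5 of these higher and 3 lower at high density. Of the 3 lower ones, 2 are the clusters of NPR2, which are not separate observations. Among all transcript clusters, 37.3% had groups that did not overlap. Only AGT, EDN1 and EDNRA had overlapping groups among the members. The spread between cultures was larger at high density in 6 of 11 member clusters, compared with 68.4% of all transcript clusters. The median SD of the members was 0.07 at normal and 0.11 at high density (n = 3 each), and over all transcript clusters it was 0.08 and 0.13.

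In the endothelin system, the receptor EDNRB (transcript cluster 12711148) had the largest change of all members. Its log2 signal was 4.53, 4.54 and 4.45 in the normal density cultures 1 to 3 and 6.68, 6.96 and 6.54 in the high density cultures. All normal density values were below the background level and all high density values were far above it, with replicate 2 the highest. The group means were 4.51 ± 0.05 and 6.73 ± 0.22 (SD, n = 3), and the log2 fold change was 2.22 (SE 0.11, 95% confidence interval 1.96 to 2.48, adjusted p = 3.70e-05 by limma). The high density mean of EDNRB was 4.31-fold above the background level, a value that does not include the spread between cultures. When single cultures were left out, the log2 fold change of EDNRB ranged from 2.10 to 2.31, and it was called each time.

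EDNRA (12745328), the other endothelin receptor, was not called. The signals were 4.24, 4.35 and 4.26 at normal density and 4.28, 4.63 and 4.42 at high density. The groups overlapped, and of all 6 cultures only high density replicate 2 exceeded the background level, and only barely. The log2 fold change of EDNRA was 0.16 (SE 0.10, 95% confidence interval -0.08 to 0.39, adjusted p = 0.336 by limma).

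The ligand genes of this system gave low signals. EDN2 (12836193) had 3.65, 3.70 and 3.44 at normal density and 4.04, 3.86 and 3.80 at high density. All values lay below the background level, and every high density culture was above every normal density culture. The log2 fold change of EDN2 was 0.30 (95% confidence interval 0.07 to 0.54, adjusted p = 0.0794 by limma), so that it missed both the FDR and the FC threshold. For EDN1 (12804444), the endothelin best known from blood vessels, signals were between 2.45 and 2.64 at normal density and between 2.47 and 2.67 at high density. This log2 fold change was 0.05 (95% confidence interval -0.16 to 0.25, adjusted p = 0.766 by limma), and its groups overlapped below the background level.

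The angiotensin receptor AGTR1 (12683322) had log2 signals of 3.27, 3.15 and 3.20 at normal density and of 4.38, 4.36 and 4.41 at high density. The cultures of each density were close together, and the groups were clearly apart, although all 6 values were below the background level. The group means of AGTR1 were 3.21 ± 0.06 and 4.38 ± 0.02 (SD, n = 3), and it rose by 1.17 on the log2 scale (SE 0.07, 95% confidence interval 1.01 to 1.33, adjusted p = 6.12e-05 by limma). This is a difference between deposited signals that were all below the background level, and it is not read as a fold of expression. Leaving out single cultures gave log2 fold changes of 1.14 to 1.21, and AGTR1 was called in all of these fits.

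AGT (12826469), which encodes the angiotensin precursor, had signals of 4.03, 3.96 and 4.13 at normal density and between 3.89 and 4.02 at high density. These groups overlapped, and the log2 fold change was -0.07 (95% confidence interval -0.25 to 0.11, adjusted p = 0.584 by limma). The peptidase ACE (12762454) had signals of 3.90, 3.90 and 3.79 at normal density and of 4.13, 4.17 and 3.93 at high density. Its groups did not overlap, but the log2 fold change of ACE was 0.21 (95% confidence interval 0.01 to 0.41, adjusted p = 0.146 by limma) and it was not called. The equal ACE signals of normal density replicates 1 and 2 were identical as deposited, which was the case for 0.493% of all transcript clusters. Both AGT and ACE were below the background level in every culture.

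**Figure D2:**
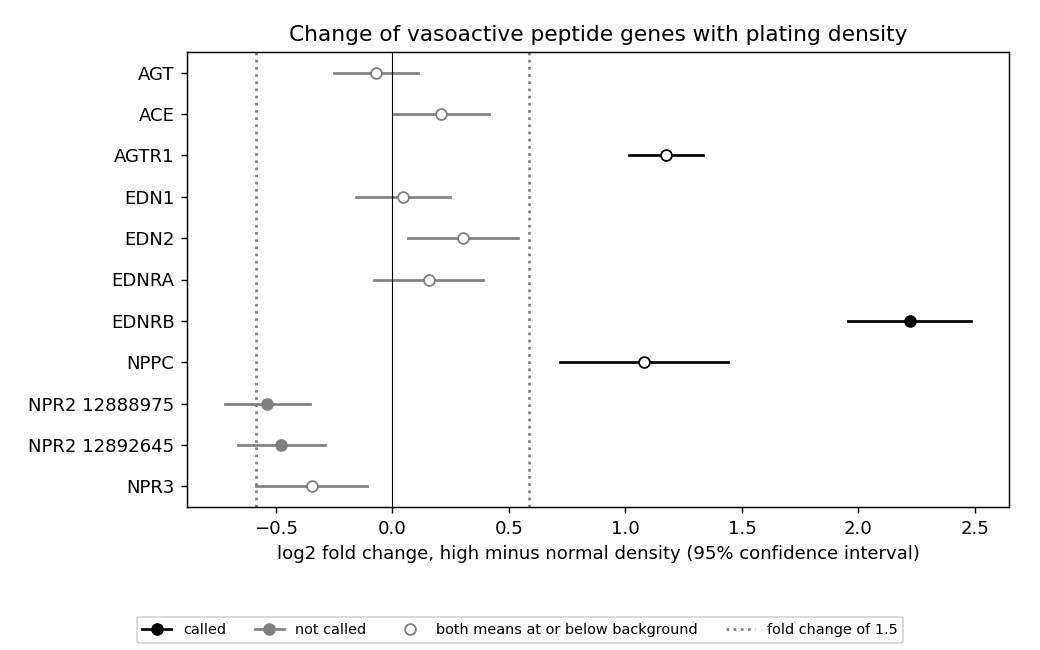
Log2 fold change (x axis, high minus normal density) of each member transcript cluster with its 95% confidence interval from limma (n = 3 cultures per density), called clusters in black and others in grey, and open circles where both group means were at or below background. The intervals of EDNRB, AGTR1 and NPPC lie wholly above the FC threshold of 1.5 (dotted lines), while the points of both NPR2 clusters lie just inside it on the negative side.

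In the natriuretic system the ligand gene NPPC was called as higher, while its receptor NPR2 had lower signals at high density without reaching the FC threshold. NPPC (12780177) had log2 signals of 3.00, 3.16 and 2.58 at normal density and of 4.08, 3.83 and 4.07 at high density. The groups were apart, with normal density replicate 3 the lowest of all, and every value was below the background level. The means of NPPC were 2.91 ± 0.30 and 3.99 ± 0.14 (SD, n = 3), and NPPC rose by 1.08 on the log2 scale (SE 0.15, 95% confidence interval 0.72 to 1.44, adjusted p = 0.00295 by limma). Without normal density replicate 3 the log2 fold change of NPPC was 0.91, and it was called with any culture left out. Like that of AGTR1, this is a difference between signals below the background level. When limma's treat tested whether the change exceeded the FC threshold itself, NPPC was not called (adjusted p = 0.243), while EDNRB and AGTR1 were.

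NPR2, the receptor of the NPPC peptide, was the only member well above the background level in all 6 cultures. Its transcript cluster 12888975 had signals of 6.83, 6.79 and 6.70 at normal density and of 6.29, 6.30 and 6.13 at high density. The groups did not overlap, and the log2 fold change was -0.54 (SE 0.08, 95% confidence interval -0.72 to -0.35, adjusted p = 0.00332 by limma), an FC of 1.45 in size. The other cluster of NPR2, 12892645, had signals between 6.68 and 6.82 at normal density and between 6.19 and 6.37 at high density. This cluster changed by -0.48 on the log2 scale (SE 0.08, adjusted p = 0.00583 by limma), an FC of 1.39 in size. The NPR2 clusters differed by at most 0.08 within a culture and carry the same symbol, so they are not separate observations. Neither NPR2 cluster was called with any culture left out, as the change stayed below the FC threshold.

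NPR3 (12786931), which clears natriuretic peptides, had signals of 4.38, 4.33 and 4.09 at normal density and of 4.04, 3.89 and 3.83 at high density. The high density cultures were all lower, but all values were below the background level. The log2 fold change of NPR3 was -0.35 (SE 0.10, 95% confidence interval -0.59 to -0.11), with adjusted p = 0.0536 by limma, and NPR3 was not called. With single cultures left out it was between -0.44 and -0.29, with an adjusted p between 0.0371, without normal density replicate 3, and 0.170, without normal density replicate 1.

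**Figure D3:**
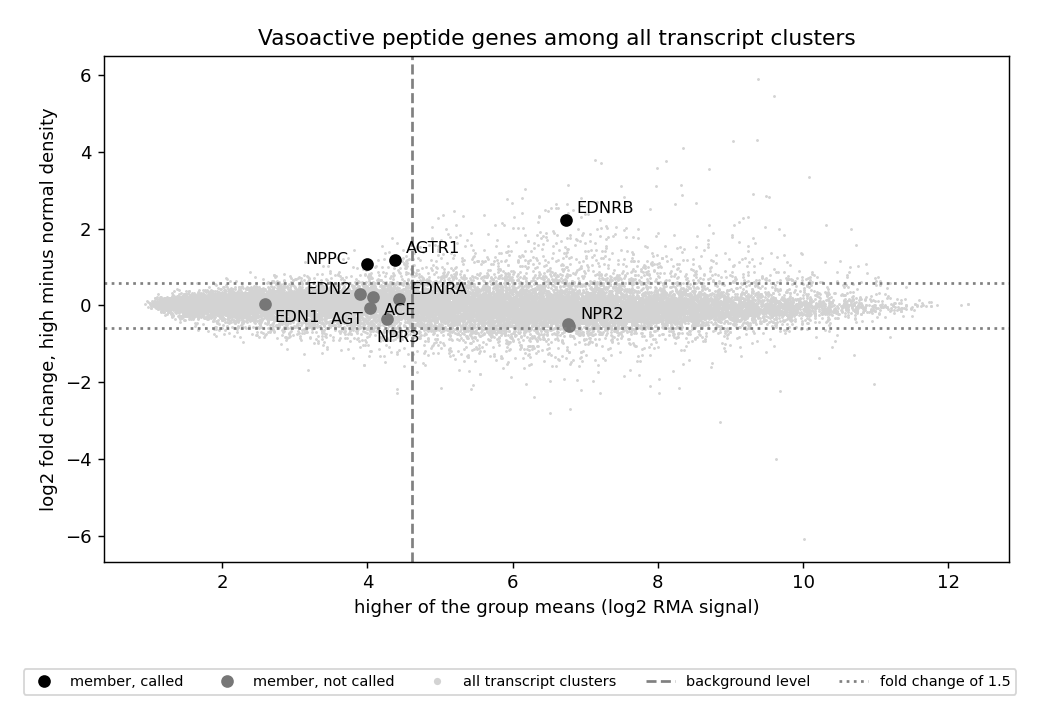
Log2 fold change (y axis, high minus normal density) against the higher of the group means (x axis, log2 RMA signal) for all 26773 transcript clusters in light grey and the members as large points, black if called. EDNRB stands out above the background level (dashed line), and AGTR1 and NPPC are called to the left of it.

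Other genes of these systems were taken from 4 lists, chosen like the members with earlier results of these data known, with 68 genes in all, of which 67 were found, with 68 transcript clusters. Of these clusters 3 were called as higher and 4 as lower, which is 10.3% compared with 7.49% of all transcript clusters, and their median log2 fold change was 0.10. Both group means were at or below the background level for 41 of them.

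Of the 16 other angiotensin genes reported here none was called by limma or by the methods' t-test, while 2 were higher and 3 lower at an unadjusted p below 0.05, beside the 32.3% of all transcript clusters, and the median log2 fold change was 0.03. AGTR2, the second angiotensin receptor, had means of 2.95 ± 0.15 and 2.38 ± 0.14 (SD, n = 3). Its change of -0.57 on the log2 scale (adjusted p = 0.0102 by limma) was just inside the FC threshold, and its signals were far below the background level. AGTRAP, an AGTR1-binding protein with clear signals, had means of 7.09 ± 0.08 and 6.55 ± 0.08 (SD, n = 3), with a change of -0.54 on the log2 scale (adjusted p = 0.00312 by limma) that did not reach the FC threshold. In this list 4 genes passed the FDR threshold at any FC. Besides AGTR2 and AGTRAP these were NLN, which was higher, and PRCP, which was lower, both above the background level. Their log2 fold changes were 0.31 and -0.50 (adjusted p = 0.0280 and 0.00803 by limma).

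None of 5 further endothelin genes was called by limma or by the methods' t-test. At an unadjusted p below 0.05 there were 0, beside the 32.3% of all transcript clusters, and the median log2 fold change was 0.09. ECE1, the enzyme that cuts the active endothelins from their precursors, gave strong signals of 10.83 ± 0.02 in normal density and 10.94 ± 0.03 in high density cultures (SD, n = 3). The log2 fold change of ECE1 was 0.11 (95% confidence interval -0.04 to 0.25, adjusted p = 0.303 by limma). The third endothelin gene, EDN3, was below the background level at both densities with a log2 fold change of 0.09 (adjusted p = 0.494 by limma).

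Among 18 natriuretic and cyclic GMP genes, CORIN was called as higher and PDE5A and NOS2 as lower, with a median log2 fold change of 0.20 for the list. This is 16.7% of the list, beside 7.49% of all transcript clusters. CORIN, a protease known for activating the atrial natriuretic peptide precursor, had signals of 4.78, 4.72 and 4.80 at normal density and of 5.59, 5.68 and 5.78 at high density, all above the background level. CORIN rose by 0.92 on the log2 scale (SE 0.08, adjusted p = 2.74e-04 by limma). PDE5A, which degrades cyclic GMP, had signals of 8.66, 8.50 and 8.57 at normal density and of 7.65, 7.99 and 7.81 at high density. PDE5A fell by 0.76 on the log2 scale (SE 0.10, adjusted p = 0.00223 by limma). The other phosphodiesterases of the list did not fall. PDE9A had means of 4.70 ± 0.08 and 5.05 ± 0.17 (SD, n = 3), and its log2 fold change of 0.35 (adjusted p = 0.0482 by limma) did not reach the FC threshold. PDE2A and PDE3A had both means below the background level, with log2 fold changes of 0.21 and 0.41 (adjusted p = 0.363 and 0.0501 by limma). NOS2, an enzyme that makes nitric oxide, was measured at 5.76 ± 0.12 and 5.14 ± 0.07 (SD, n = 3) and fell by 0.62 on the log2 scale (adjusted p = 0.00253 by limma). Without normal density replicate 2, NOS2 changed by -0.56 and was not called. Another nitric oxide synthase, NOS3, went the other way, with means of 4.24 ± 0.08 and 4.78 ± 0.17 (SD, n = 3). Its log2 fold change of 0.54 (adjusted p = 0.0100 by limma) did not reach the FC threshold, and its normal density mean was below the background level. NOS1 was below the background level at both densities (log2 fold change 0.18, adjusted p = 0.243 by limma). The nitric oxide receptor subunit GUCY1B3 had means of 6.87 ± 0.01 and 7.43 ± 0.06 (SD, n = 3), and its log2 fold change of 0.56 (adjusted p = 0.00135 by limma) stayed just inside the FC threshold. The natriuretic peptides NPPA and NPPB and their receptor NPR1 were below the background level at both densities, with log2 fold changes of -0.05, 0.15 and 0.05 and adjusted p-values from limma of 0.704, 0.403 and 0.754.

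**Figure D4:**
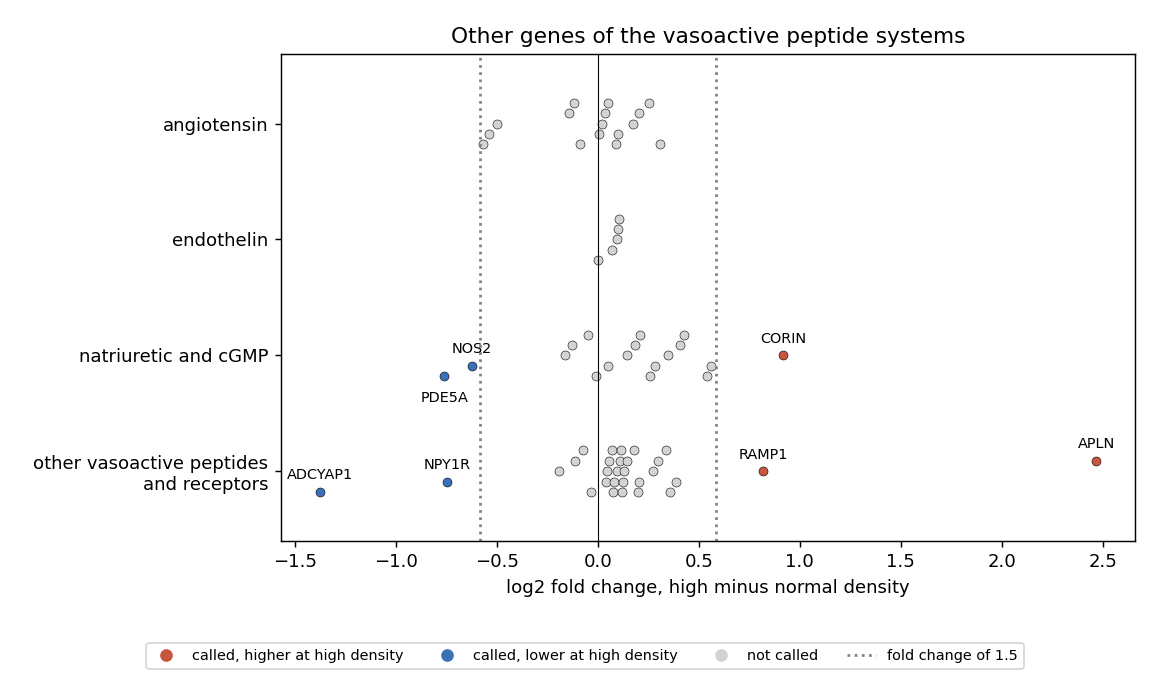
Log2 fold change (x axis, high minus normal density) of every other transcript cluster in the 4 gene lists (rows), with called clusters in red when higher and in blue when lower and the FC threshold of 1.5 as dotted lines. APLN lies farthest from 0, and the endothelin list lies close to 0.

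Of 29 transcript clusters for other vasoactive peptides and their receptors, APLN and RAMP1 were called as higher and ADCYAP1 and NPY1R as lower. This is 13.8% of these clusters, beside 7.49% of all transcript clusters. APLN, which encodes the peptide apelin, had signals of 3.90, 3.99 and 4.17 at normal density and of 6.61, 6.33 and 6.52 at high density. It was below the background level in all normal density cultures and above it in all high density cultures. The log2 fold change of APLN was 2.47 (SE 0.11, adjusted p = 2.06e-05 by limma), and its high density mean was 3.65-fold above the background level. The apelin receptor APLNR had means of 2.81 ± 0.17 and 3.11 ± 0.20 (SD, n = 3), both below the background level (adjusted p = 0.158 by limma). ADCYAP1, the gene of the pituitary adenylate cyclase-activating peptide, had means of 6.93 ± 0.21 and 5.55 ± 0.38 (SD, n = 3) and fell by 1.38 on the log2 scale (SE 0.19, adjusted p = 0.00285 by limma). NPY1R, a neuropeptide Y receptor, fell by 0.75 on the log2 scale (adjusted p = 9.87e-04 by limma). RAMP1, a partner of the receptor for calcitonin gene-related peptide, rose by 0.82 on the log2 scale (adjusted p = 0.00259 by limma). The normal density mean of RAMP1, 4.28, was below the background level. Its high density mean was 1.40-fold above that level, which is below the FC threshold. Adrenomedullin (ADM) had strong signals of 9.51 ± 0.05 and 9.87 ± 0.07 (SD, n = 3), where the change of 0.36 (adjusted p = 0.0128 by limma) did not reach the FC threshold.

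Markers of GC and of other cells of the follicle wall were read beside these results. All 12 GC markers had a group mean above the background level, and 6 of them were called as lower and 1 as higher at high density. Those called as lower were FSHR, CYP19A1, FOXL2, INHA, INHBA and FST, and HSD17B1 was called as higher. AMH, NR5A1, NR5A2, GATA4 and GJA1 were not called. Of all transcript clusters, 7.49% were called, 3.97% as higher and 3.51% as lower, and these shares stand beside each list below. The log2 signals of the GC markers summed to between 94.4 and 96.7 at normal density and to between 86.0 and 87.3 at high density. Such a sum of log2 signals follows its single markers and is not an amount of RNA or a share of cells. By limma and by the methods' t-test none of 12 markers of endothelial cells, which carry endothelin receptors, was called. At an unadjusted p below 0.05 there were 3, where 32.3% of all transcript clusters passed. Of the 12 endothelial markers, 10 had both means at or below the background level, including PECAM1 and CDH5. The endothelial log2 signals summed to between 38.9 and 40.3 at normal density and to between 40.3 and 40.7 at high density. KDR, at 2.85 ± 0.05 and 3.33 ± 0.23 (SD, n = 3), had a log2 fold change of 0.48 (adjusted p = 0.0275 by limma), and TEK, at 2.63 ± 0.13 and 2.27 ± 0.08, one of -0.36 (adjusted p = 0.0303 by limma). These were the endothelial markers that passed the FDR threshold, both with means below the background level. For all 9 leukocyte markers both means lay at or below the background level, and none was called by either test. At an unadjusted p below 0.05 there were 2, beside the same 32.3% of all transcript clusters. Of 7 smooth muscle and pericyte markers found, ACTA2, PDGFRB and CSPG4 were called as higher and MYH11 as lower. Both means of MYH11, 4.59 and 3.93, were below the background level. The log2 signals of this list summed to between 35.4 and 36.1 at normal density and to between 37.9 and 39.3 at high density. Of 8 theca markers, INSL3 and COL1A1 were called as higher and LHCGR as lower. Both means of LHCGR, 4.04 and 2.84, were below the background level. LHCGR is not particular to theca cells, as the paper measured it as a gene of its GC. The theca enzyme CYP17A1 was below the background level at both densities. The sums of the theca list were between 51.1 and 52.5 at normal density and between 53.8 and 54.7 at high density. The part of these markers in the changes of EDNRB, AGTR1 and NPPC was not tested, and in bulk RNA more cells of a type and more RNA per cell cannot be told apart.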

How the data were processed

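RNA from 6 GC cultures was hybridized to Bovine Gene 1.0 ST arrays, 1 per culture. Per the labels, the authors used Expression Console with RMA and compared groups in Transcriptome Analysis Console 3.0. The deposited table holds their log2 signals, and no further normalization was applied. The genome build was not given in the sources used here, so no coordinates are printed. All 10 member symbols are in the RefSeq gene table of assembly ARS-UCD2.0, and the 5 member clusters with a RefSeq accession matched their own symbol. No sequences were used. Of the 68 genes of the vasoactive lists, 2 were matched by accession (ECEL1 and UTS2B), CMA1 was not matched, and of the marker lists NOTCH3 was not matched. Further angiotensin genes are not reported here and were left out of the list counts.

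The R package limma 3.58.1 (R 4.3.3) compared the densities by lmFit and eBayes without covariates over 26773 transcript clusters, followed by Benjamini-Hochberg adjustment. In simulated data of 26773 transcript clusters, this test called 82% of 100 changes of 1 and 98% of 100 changes of 2 on the log2 scale, with 1 false call. The simulated noise was independent between clusters and had the same SD at both densities, and far fewer clusters changed than were called here. In the cultures the SD was larger at high density in 68.4% of all transcript clusters, so these rates need not hold for them. The members and gene lists were chosen with earlier results of these data known. Genes named are all members, all called genes of the vasoactive lists and partners of the members (ECE1, AGTR2, EDN3, NPR1, NPPA and NPPB). AGTRAP, NLN, PRCP, GUCY1B3, NOS1, NOS3, PDE2A, PDE3A, PDE9A, APLNR and ADM are not covered by this rule and were picked with their values in view. Folds against the background level set the dimmer group to that level and use the mean of the other group without its error. Alternatives were the methods' t-test (analysis of variance for the 2 groups), array weights, variances with a trend and robust prior, shifting arrays to one median, quantile normalizing again, the replicate number as a block, testing only signals over the background level, treat, the FDR threshold alone and leaving out each culture. Averaging both NPR2 clusters was added after seeing the data. Same-numbered cultures of the 2 densities were checked for shared deviations from their group means, and the correlations were 0.05, -0.05 and -0.04, so the numbers were not taken as pairs. Figures were drawn with matplotlib 3.10.9.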

Additional observations from a re-analysis of the deposited data

How the results depend on the processing

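EDNRB, AGTR1 and NPPC, and no other member, were called with the methods' t-test, trend and robust variances, array weights, median centring, a second quantile normalization, averaged NPR2 clusters, and each culture left out. Each member kept the direction of its change in every alternative fit that included it. A filter at the background level left EDNRB as the only called member (1, and 1 up), since AGTR1 and NPPC were then not tested. With treat, 2 members, 1 gene of the wider lists and 529 transcript clusters in all were called, compared with 3, 7 and 2005. With the FDR threshold alone at any FC these were 5 members, of which 2 were lower (both NPR2 clusters), 17 genes of the wider lists and 5106 transcript clusters. With each culture left out, 3 members, between 7 and 9 genes of the wider lists and between 1848 and 2434 transcript clusters were called. The count of 2434 came without high density replicate 2, which had the lowest array weight. That weight was 0.29, and those of the other arrays were between 0.82 and 1.66. High density replicate 2 also gave the highest EDNRB signal and the only EDNRA signal above the background level. Without it the log2 fold change of EDNRB was 2.10. With the replicate number as a block, 3 members, 7 genes of the wider lists and 2020 transcript clusters were called, so this block changed no call of a member. The cause of these shifts was not tested beyond the construction of each setting. The changes of AGTR1 and NPPC rest on signals below the background level at both densities, and that of EDNRB on such signals at normal density.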

Other observations

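Over the 6 cultures the transcript clusters with a symbol whose log2 signals were most like those of EDNRB were CSRP2, NELL2 and NRN1, each with a Pearson r of 0.999. For AGTR1 they were TNFRSF21 (r = 0.9996), FAM196A and SNAP91 (r = 0.999 each), and for NPPC they were SPRYD3 (r = 0.999), BRPF3 (r = 0.999) and TBL2 (r = 0.998). These values describe 2 groups of 3 cultures and follow mostly from the difference between the groups. Of 20573 transcript clusters with a symbol, 1139 had an r above 0.95 with EDNRB, 1235 with AGTR1 and 738 with NPPC. All cultures share the array type and the normalization.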
